A study of Homo sapiens with 6 samples.

Results

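ATF4 and 9 regulators and targets of the unfolded protein response were followed between a pirarubicin-resistant bladder cancer line and its parent. The genes were fixed by symbol as ATF4, ATF6, XBP1, ERN1, DDIT3, CHAC1, TRIB3, ASNS, SESN2 and NUPR1, and each matched 1 row of the deposited expression table, so that 10 of 24930 named genes are described. T24/THP is a multidrug-resistant derivative of T24, selected with pirarubicin, a topoisomerase II poison of the anthracycline class. Cells were dosed for 24 h at a time and left to recover, with the concentration raised in steps between 5 and 1000 ng/ml during a selection that took over 6 months, and drug was added every 2 to 3 weeks to keep the resistance. T24 is the drug-sensitive human bladder carcinoma line, cultured in parallel in the same RPMI-1640 medium with serum. Each line was measured on 3 Affymetrix whole-transcript arrays from samples that the labels call independent. The resistant line was derived once, so p-values reflect how far samples of the same culture scattered, not how far independent selections would. How long the cells were free of drug before RNA was taken is not stated in the labels. The comparison asks which transcripts differ between the resistant and the sensitive line.

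The unfolded protein response is the set of signals that cells send when unfolded proteins collect in the endoplasmic reticulum (ER). It starts at the ER membrane with the kinase and nuclease IRE1 (encoded by ERN1), the membrane-tethered transcription factor ATF6, and the kinase PERK (encoded by EIF2AK3). IRE1 removes an intron from XBP1 mRNA so that an active transcription factor is made, ATF6 is cut free in the Golgi, and PERK phosphorylates the translation factor eIF2alpha, which slows translation in general while favouring that of ATF4. Other kinases that sense haem shortage, viral RNA or amino acid shortage act on eIF2alpha too, and ATF4 is therefore also the centre of the wider integrated stress response. Most of this control lies in splicing, cleavage and translation, which the level of a transcript does not show. An array value for XBP1 sums the spliced and unspliced forms.

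The 6 arrays had medians of 3.71 to 3.79 log2 units. Arrays of the same line correlated at 0.997 to 0.998 (Pearson's r across genes, which are not independent), and arrays of different lines at 0.977 to 0.981. The background range was taken to end at the level of the brightest of 23 background probe sets, averaged over each line, which was 5.51 log2 units in T24/THP and 5.54 in T24. All 10 genes lay above it in both lines. On the array of T24 replicate 3, whose brightest background probe set reached 6.38, ERN1, DDIT3 and NUPR1 were dimmer than that probe set. Of 14 urothelial and epithelial markers only KRT7, KRT8 and KRT18 were above background, and the uroplakins, GATA3, KRT19, EPCAM and CDH1 were not. Summed on the linear scale, the 14 markers reached 43063 to 50546 intensity units in T24/THP and 36988 to 41674 in T24. Of 12 leukocyte, endothelial and fibroblast markers 11 lay in the background range, among them PTPRC, PECAM1 and COL1A1, and CDH5, a cadherin of endothelium, was at 13.12 in T24/THP and 12.30 in T24. The linear sum of the 12 markers, most of it from CDH5, was 8187 to 9656 in T24/THP and 4650 to 5522 in T24. Its part in the results below was not tested. In bulk RNA, fewer cells with a transcript and less of it per cell cannot be told apart.

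Promoters of the 10 genes were searched for elements of the pathway, and the 3 that held a match are shown. ATF4 binds with C/EBP proteins to a composite element whose core is searched here as TGATGNAA, and the nuclear form of ATF6 binds the ER stress response element, searched as CCAAT, 9 bases of any kind, then CCACG. Promoter windows of 300 bases, from 250 before to 50 after a start, came from RefSeq (GRCh38.p14). They covered 9 of the 10 genes, all but NUPR1. The ATF4 core stood in the windows of ASNS and CHAC1, and the ER stress element in that of XBP1. The other 6 genes with a window held neither. In the 250 bases before the start printed below, 5′ to 3′ on each gene's strand, capitals mark the match.
ASNS (chr7:97872409-97872658, minus strand): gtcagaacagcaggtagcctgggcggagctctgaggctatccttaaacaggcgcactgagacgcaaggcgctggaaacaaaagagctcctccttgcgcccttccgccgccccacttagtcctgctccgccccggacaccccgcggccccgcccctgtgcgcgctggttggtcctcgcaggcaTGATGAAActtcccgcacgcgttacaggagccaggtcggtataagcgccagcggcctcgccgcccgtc
CHAC1 (chr15:40953221-40953470, plus strand): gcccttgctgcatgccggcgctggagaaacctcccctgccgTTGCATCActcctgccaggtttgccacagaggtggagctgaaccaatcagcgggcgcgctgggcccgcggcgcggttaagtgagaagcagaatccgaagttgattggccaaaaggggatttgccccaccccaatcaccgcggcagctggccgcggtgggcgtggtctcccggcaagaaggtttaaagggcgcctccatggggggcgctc
XBP1 (chr22:28800570-28800819, minus strand): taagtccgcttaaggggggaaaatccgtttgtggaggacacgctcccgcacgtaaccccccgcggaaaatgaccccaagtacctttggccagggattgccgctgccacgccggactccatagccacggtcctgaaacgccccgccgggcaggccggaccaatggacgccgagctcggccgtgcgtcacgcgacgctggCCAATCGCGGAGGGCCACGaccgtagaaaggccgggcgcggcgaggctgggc

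The core begins 68 bases before the ASNS start, and on the opposite strand of CHAC1 it lies between 209 and 202 bases before the start. Both strands were searched, and no printed match overlaps another. Of 27305 genes with a window, 4.46% hold the ATF4 core and 0.0916% the ER stress element. A further search, for the core TGACGTG of the unfolded protein response element that spliced XBP1 binds, found it in 2.40% of genes and in 0 of these 9. A match describes letters and is no measurement of binding.

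The 10 transcripts did not move as a block. NUPR1, ASNS, ATF6 and ATF4 were higher in T24/THP and CHAC1 and TRIB3 were lower, each with an adjusted p under 0.05 in limma's moderated test over all 24930 genes. XBP1, ERN1, DDIT3 and SESN2 did not pass. A gene was called where the difference was also at least 2-fold, and this left NUPR1 on the higher side and CHAC1 on the lower. That is 2 called of 10, against 6.62% of all genes, with 1 higher against 2.85% and 1 lower against 3.77%. The 6 of 10 that passed on adjusted p compare with 33.1% of all genes, and split into 4 higher against 15.1% and 2 lower against 18%. Among the 10519 genes above background in at least 1 line, 15.2% were called and 64.2% passed on adjusted p, close to the shares of the 10. The median difference of the 10 was 0.13 log2 units, beside 0.01 over all genes and −0.08 over those above background. In the plot of levels by array, the 3 arrays of each line do not overlap for 6 of the 10 genes, as was so for 45.2% of all genes and 74.7% of those above background in at least 1 line.

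**Figure D1:**
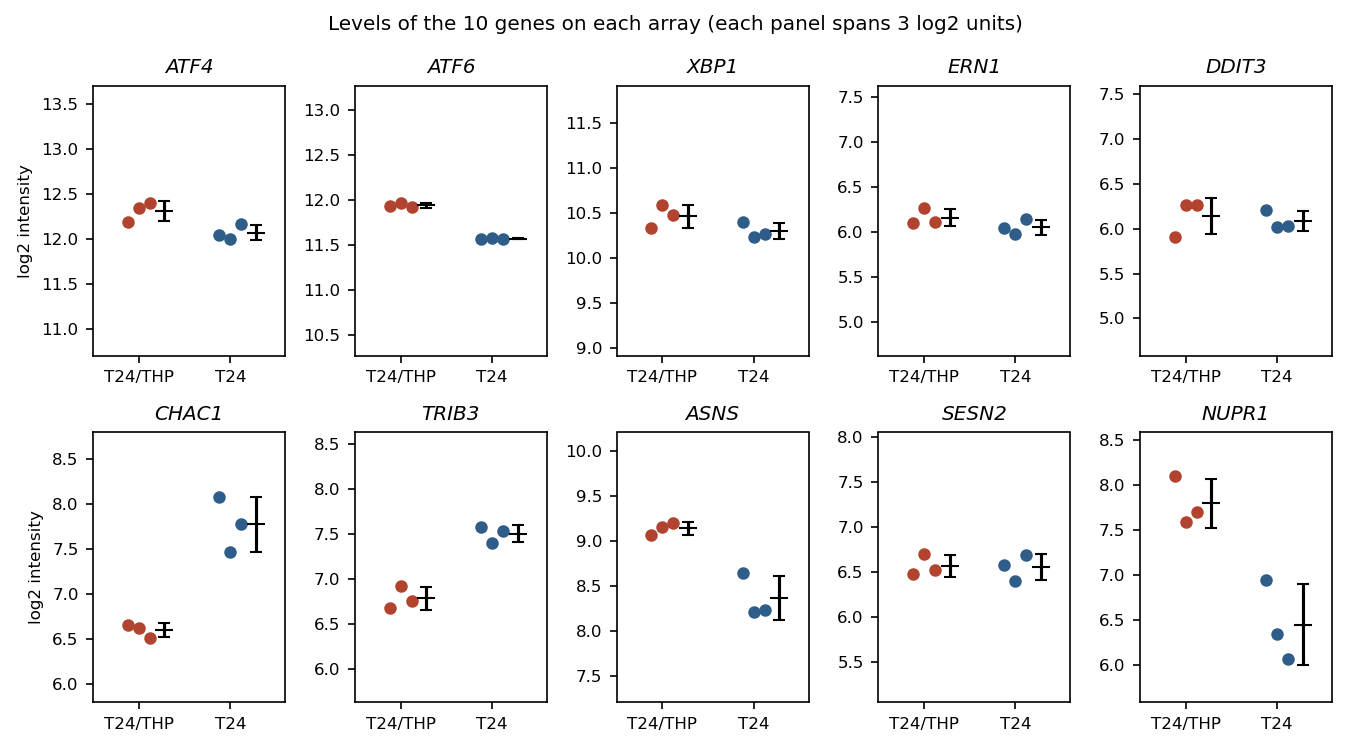
Level of each of the 10 genes on each array in log2 intensity (vertical axis, each panel spanning the same number of units), with T24/THP in red and T24 in blue and the mean ± SD of 3 arrays as a black bar. CHAC1 and TRIB3 sit lower in T24/THP, NUPR1, ASNS, ATF6 and ATF4 sit higher, and the points of XBP1, ERN1, DDIT3 and SESN2 overlap between the lines.

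Of the sensors at the ER membrane, ATF6 rose slightly and ERN1 did not pass. ATF6 (TC01001414.hg.1, chromosome 1 at 161736034 to 161933860 in GRCh37), the precursor of a transcription factor for ER chaperones, was at 11.93, 11.97 and 11.92 log2 units in T24/THP, against 11.57, 11.58 and 11.56 in T24. These were the tightest replicates of the 10 genes, with a residual SD of 0.018 log2 units, beside a median of 0.094 over all genes. The difference of 0.37 ± 0.051 (SE) is 1.29-fold, with an adjusted p of 0.000969. It passed under each of 15 other settings, with a range of 0.30 to 0.50. Another 4 transcript clusters without a symbol are tied to ATF6 by the deposited annotation, and the 1 that overlaps its exons in sense (TC01004799.hg.1) was at 8.22, 8.88 and 8.56 in T24/THP and at 8.18, 7.70 and 7.94 in T24. It was not part of the test, and its lines lay apart by a narrow margin.

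ERN1 (TC17001796.hg.1, chromosome 17 at 62120390 to 62207502), which encodes IRE1, was at 6.09, 6.27 and 6.11 in T24/THP, against 6.04, 5.97 and 6.14 in T24. The lines overlapped. Its difference was 0.11 with a 95% interval of −0.067 to 0.28 (adjusted p of 0.350), so a difference above 0.28 log2 units lies outside the interval. The third sensor gene, EIF2AK3, which encodes PERK and is named here for its role, was at 7.14 in both lines, with a difference of −0.0036 ± 0.071 (SE).

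The transcription factors of the response differed little. ATF4 (TC22000317.hg.1, chromosome 22 at 39915700 to 39918691) was at 12.19, 12.34 and 12.40 in T24/THP, against 12.05, 12.002 and 12.16 in T24. The lowest T24/THP array stood just above the highest T24 array. The difference was 0.24 ± 0.077 (SE), or 1.18-fold, and passed narrowly (adjusted p of 0.0476). It passed in 9 of 15 other settings. The adjusted p was 0.136 without T24/THP replicate 2, 0.154 without T24/THP replicate 3, 0.109 without T24 replicate 1, 0.146 without T24 replicate 2, 0.142 with array medians centred and 0.0518 with a trended, robust variance. Genes with a mean level of 12 log2 units or more had a median difference of −0.16, and with that trend of difference with level removed ATF4 stood at 0.34 (adjusted p of 0.0108).

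XBP1 (TC22000627.hg.1, chromosome 22 at 29190543 to 29196585), the target of IRE1 and itself a gene with an ER stress element, was at 10.33, 10.58 and 10.47 in T24/THP, against 10.40, 10.24 and 10.26 in T24. The lowest T24/THP array lay below the highest T24 array. Its difference of 0.16 had an interval of −0.032 to 0.35 (adjusted p of 0.198) and passed only with the level trend removed, at 0.28 (0.0342). DDIT3 (TC12001625.hg.1, chromosome 12 at 57910371 to 57914300) encodes CHOP, the factor that ATF4 induces and that promotes cell death under lasting ER stress. It was at 5.91, 6.26 and 6.26 in T24/THP, against 6.21, 6.01 and 6.03 in T24. These values are close to the background range in both lines, and they overlap. The difference was 0.058, with an interval of −0.20 to 0.31 (adjusted p of 0.756).

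The strongest differences were among genes that ATF4 controls, and they went both ways. NUPR1 (TC16000989.hg.1, chromosome 16 at 28548606 to 28550495), a small nuclear protein of the stress response, was at 8.10, 7.59 and 7.70 in T24/THP, against 6.94, 6.34 and 6.07 in T24. Every T24/THP array was above every T24 array, and the T24 arrays were spread widely. The mean was 7.80 ± 0.27 in T24/THP and 6.45 ± 0.45 in T24 (SD, n = 3 each). T24/THP was thus 2.55-fold higher, by 1.35 ± 0.23 (SE), with an adjusted p of 0.00261. Its residual SD of 0.37 log2 units was above that of 98.9% of genes. With 1 array left out at a time, the difference ran from 1.16 to 1.59 and stayed called.

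ASNS (TC07001630.hg.1, chromosome 7 at 97481429 to 97501854) encodes asparagine synthetase, a classic target of ATF4 under amino acid shortage. It was at 9.06, 9.16 and 9.20 in T24/THP, against 8.64, 8.21 and 8.24 in T24. The lines lay apart, and T24 replicate 1 was the highest of its line. The mean was 9.14 ± 0.070 in T24/THP and 8.36 ± 0.24 in T24, a difference of 0.78 ± 0.12 (SE) or 1.71-fold, under the 2-fold minimum, with an adjusted p of 0.00153.

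CHAC1 (TC15000300.hg.1, chromosome 15 at 41245160 to 41248717) encodes an enzyme that degrades glutathione and is induced through ATF4. It was at 6.66, 6.63 and 6.51 in T24/THP, against 8.07, 7.47 and 7.78 in T24. All T24/THP arrays were below all T24 arrays, with a tight spread in T24/THP. The mean was 6.60 ± 0.076 in T24/THP and 7.77 ± 0.30 in T24, a difference of −1.17 ± 0.14 (SE), or 2.26-fold lower, with an adjusted p of 0.000480. The interval of −1.51 to −0.84 includes differences under 2-fold. Adding an offset of 32 to the linear intensities took it to −0.96 and ended the call, though the adjusted p was still 0.00324. Leaving out 1 array at a time gave −1.33 to −1.02.

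TRIB3 (TC20000009.hg.1, chromosome 20 at 361261 to 378203), a pseudokinase that ATF4 and CHOP induce and that binds and restrains ATF4, was at 6.68, 6.93 and 6.76 in T24/THP, against 7.58, 7.40 and 7.54 in T24. The lines lay well apart. The difference was −0.72 ± 0.084 (SE), or 1.64-fold lower, with an adjusted p of 0.000407, and ran from −0.79 to −0.58 over 16 other settings. SESN2 (TC01000377.hg.1, chromosome 1 at 28585963 to 28609002), a stress-induced inhibitor of the growth kinase mTORC1, was at 6.48, 6.70 and 6.52 in T24/THP, against 6.58, 6.40 and 6.68 in T24. The lines overlapped throughout, with a difference of 0.013 and an interval of −0.21 to 0.23 (adjusted p of 0.945).

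**Figure D2:**
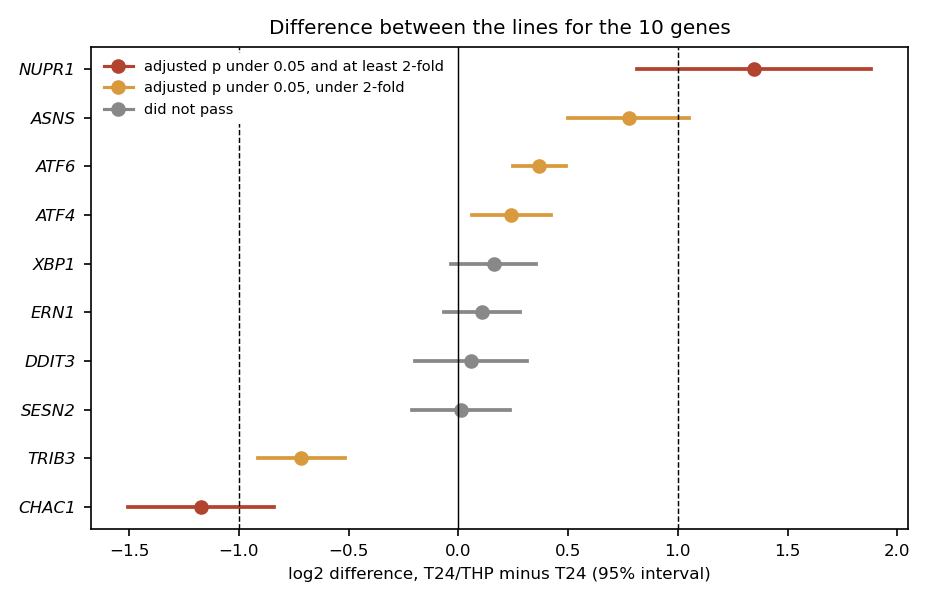
Difference between the lines for each of the 10 genes (horizontal axis, log2 units, T24/THP minus T24), with points at the estimate, bars for the 95% interval and dashed lines at a 2-fold difference. NUPR1 at 1.35 and CHAC1 at −1.17 lie beyond the dashed lines, and no interval of the 10 lies wholly beyond them.

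ASNS and CHAC1 both carry a match to the ATF4 core and moved in opposite directions, at 0.78 and −1.17 log2 units. Single arrays were often the highest or lowest of their line over the 10 genes. T24/THP replicate 2 was the highest T24/THP array for 6 of the 10, beside 34.4% of all genes. T24 replicate 1 was the highest T24 array for 6 of the 10 genes (XBP1, DDIT3, CHAC1, TRIB3, ASNS and NUPR1), beside 33.8% of all genes, and T24 replicate 2 was the lowest for 8, beside 32.7%. Without T24 replicate 1, NUPR1 stood at 1.59, ASNS at 0.92, TRIB3 at −0.68 and CHAC1 at −1.02, and each passed on adjusted p. Against a difference of 2-fold itself, none of the 10 passed, as against 2.96% of all genes.

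Levels of different genes rest on different probes and were not ranked. By the shape and size of its profile, the genes closest to ATF4 over the 6 arrays were RNU6-60P, FDPS, PBX2, RNF103 and DDR1. They were taken out of 9683 genes above background in both lines. Their Euclidean distance from ATF4, each gene centred on its own mean and not scaled, was 0.064 to 0.094 log2 units. In limma FDPS and PBX2 passed, with adjusted p of 0.0421 and 0.0140. RNU6-60P, RNF103 and DDR1 did not (0.0726, 0.0664 and 0.0735). FDPS is an enzyme of isoprenoid synthesis, PBX2 a homeodomain factor, RNF103 a ubiquitin ligase of the ER and DDR1 a collagen receptor.

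Among paralogs of the 10 genes, SESN3, TRIB2, TRIB1, ATF6B and ATF5 rose and CHAC2 fell, and differences between a paralog and its relative among the 10 were not tested. SESN3, a sestrin like SESN2, was at 7.12 in T24/THP and 5.60 in T24, a rise of 1.52 ± 0.11 (SE) with an adjusted p of 3.70e-05, while SESN1 was at 5.58 in T24/THP and 5.59 in T24, a difference of −0.0046. TRIB2, a pseudokinase related to TRIB3, was at 7.81 in T24/THP and 6.56 in T24, 2.38-fold higher (adjusted p of 0.000135), and TRIB1 rose by 0.34 (0.0100). CHAC2, the second enzyme of the CHAC1 family, was at 4.92 in T24/THP, within the background range, and at 5.88 in T24, and was at least 1.30-fold lower (adjusted p of 0.000268). ATF6B, which resembles ATF6, rose by 0.20 (0.0333). ATF5, the closest relative of ATF4, was at 5.53 in T24/THP and 5.28 in T24, in the background range in T24 (adjusted p of 0.0171), so no fold is given. Neither line had ERN2 or NUPR2 above background. Of these 9 paralogs 2 were called, both higher, with a median of 0.20. Counts here and in the lists below stand beside 6.62% of all genes called, and 15.1% higher and 18% lower on adjusted p. Among genes above background in at least 1 line, 15.2% were called and 64.2% passed on adjusted p. The lists of related genes were chosen, like the 10 themselves, with earlier results of these data known.

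Upstream of ATF4, the kinases of eIF2alpha did not all go one way. A list of 20 genes covered these kinases, eIF2alpha, the initiation factor EIF2A, the exchange factor, the phosphatase and partners of the sensors and kinases. Of these 20, 1 was called higher and 2 lower, and 4 rose and 9 fell on adjusted p, with a median of −0.20. EIF2AK2, the kinase PKR that senses double-stranded RNA and is induced by interferon, was at 15.38 in T24/THP and 13.52 in T24, a rise of 1.86 ± 0.073 (SE) with an adjusted p of 3.16e-06. EIF2AK1, the kinase HRI that senses haem shortage, rose by 0.22 (0.0247). EIF2AK4, the kinase GCN2 that senses amino acid shortage, fell by 0.56 (0.000262), and EIF2AK3 did not pass, as given above. EIF2AK1 and EIF2AK4 are named for their roles and were not called. MBTPS2, the protease that completes the cleavage of ATF6, fell by 1.33 (adjusted p of 8.15e-05). EIF2B3, a subunit of the exchange factor that phosphorylated eIF2alpha blocks, fell by 1.03 and lost its call in 6 of 16 other settings, among them without T24 replicate 2 (−0.998) or 3 (−0.94). The bZIP partners of ATF4 and CHOP, 19 genes of which 10 were in the background range, had 0 called in limma, with 7 higher and 2 lower on adjusted p, and a median of 0.02 that turned to −0.02 under quantile normalization, −0.04 with array medians centred and −0.02 with the level trend removed.

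Targets of ATF4 in amino acid and one-carbon metabolism were lower on balance, unlike ASNS. Of 20 such genes 5 were called, all lower, and on adjusted p 11 fell and 4 rose, with a median of −0.26. ALDH18A1, which makes the precursor of proline, was at 9.38 in T24/THP and 11.10 in T24, a difference of −1.72 ± 0.093 (SE) with an adjusted p of 1.14e-05. SLC7A5, the large neutral amino acid carrier, fell by 1.55 (3.42e-05) and SLC7A11, the cystine importer, by 1.14 (0.000456). The other called genes, named after their values were seen, were SLC7A1, a cationic amino acid carrier, at −1.07 and BCAT1, a branched-chain aminotransferase, at −1.02. SLC7A1 lost its call in 4 of 16 settings (−0.96 without T24/THP replicate 3), and BCAT1 in 7, among them without T24/THP replicate 2 (−0.998), T24 replicate 1 (−0.98) or T24 replicate 3 (−0.99). Under quantile normalization, and also with the level trend removed, 3 were called. The median was then −0.16 and −0.19, and in both 8 fell and 4 rose on adjusted p. All genes with mean levels of 8 to 10 log2 units had a median difference of −0.12. The highest of the 20 was SLC38A2, a glutamine carrier named after its value was seen, at 0.85 (adjusted p of 0.000251).

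**Figure D3:**
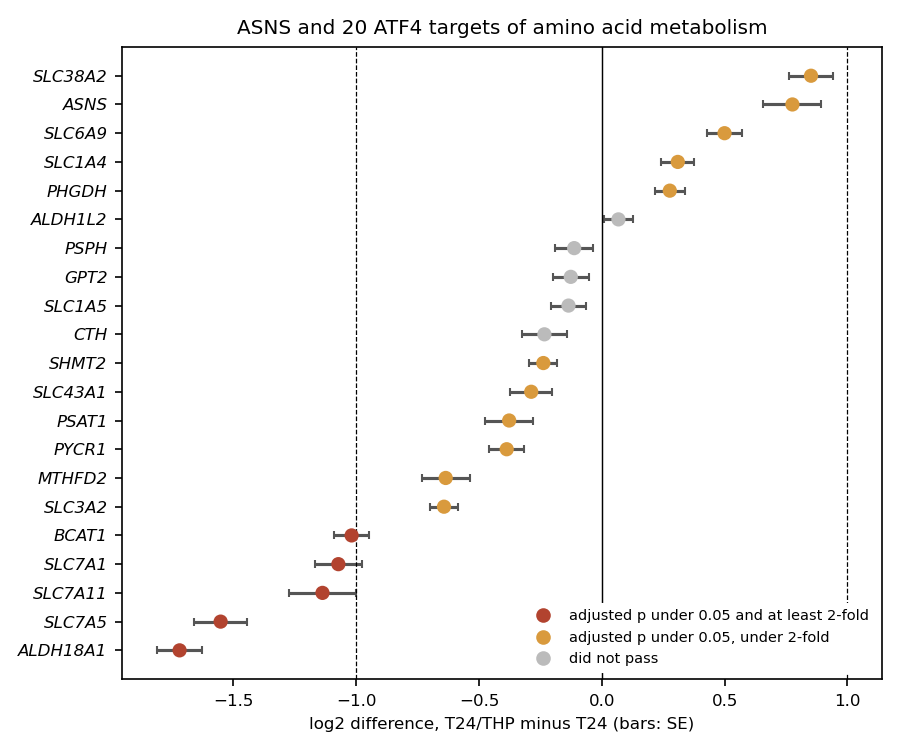
Difference between the lines (horizontal axis, log2 units, T24/THP minus T24, bars for SE) for ASNS and 20 ATF4 targets of amino acid and one-carbon metabolism, with dashed lines at a 2-fold difference. ASNS at 0.78 and SLC38A2 at 0.85 stand at the top, and the 5 genes called lower, from BCAT1 at −1.02 to ALDH18A1 at −1.72, at the bottom.

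The cytosolic tRNA synthetases that ATF4 induces, 12 genes, had 1 called, WARS1, the tryptophan enzyme that interferon also induces, which rose by 2.53 ± 0.086 (SE) to 12.72 in T24/THP, against 10.19 in T24 (adjusted p of 1.77e-06). On adjusted p 3 rose and 3 fell, and the list median of −0.05 turned to 0.07 under quantile normalization and to 0.05 with the level trend removed. Of 23 other targets of ATF4 and CHOP, 1 was called higher and 2 lower, with 9 higher and 4 lower on adjusted p. KLHL24, an adaptor of a ubiquitin ligase, rose by 2.06 (adjusted p of 4.08e-05). DDIT4, an inhibitor of mTORC1, fell by 1.29 (0.000622) and VEGFA, the vascular growth factor, by 1.20 (0.000129). Their list median of 0.05 turned to −0.01 with array medians centred.

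The ATF4 core stood in genes that rose and in genes that fell. For display, genes above background in both lines were taken from the 10 and the lists. They had to pass on adjusted p and differ by at least 0.5 log2 units. The share of all genes past this minimum was not counted. Of the genes taken, 8 hold the core, of which 2 were higher and 6 lower. In SLC3A2, the partner chain of SLC7A5, and SRPRB, a subunit of the signal recognition particle receptor, at −0.64 and −0.68, it lies too near the edge of the window to show 10 bases on each side. The other 6 are shown from the highest to the lowest difference, 28 bases each, turned so that the core in capitals reads 5′ to 3′, with the coordinates and strand of the printed letters in GRCh38.p14.
AARS1 (chr16:70289676-70289703, plus strand): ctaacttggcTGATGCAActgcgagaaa
ASNS (chr7:97872459-97872486, minus strand): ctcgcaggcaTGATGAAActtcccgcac
IARS1 (chr9:92293693-92293720, plus strand): cgcacggaggTGATGCAAcgcgctgaaa
BCAT1 (chr12:24949132-24949159, minus strand): gtcttcctgcTGATGCAAtccgctaggt
SLC7A1 (chr13:29595664-29595691, minus strand): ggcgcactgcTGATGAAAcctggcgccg
CHAC1 (chr15:40953252-40953279, minus strand): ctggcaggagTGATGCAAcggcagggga

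AARS1, the alanyl-tRNA synthetase, rose by 0.92, and IARS1, the isoleucyl-tRNA synthetase, fell by 0.81. ASNS and SLC7A1 share the core letters and stood at 0.78 and −1.07. AARS1, IARS1, BCAT1 and CHAC1 share theirs and stood at 0.92, −0.81, −1.02 and −1.17. The core of SLC7A1 begins at base 8 after the start, while the other cores shown lie before it. Of the listed genes with the 10 themselves, 134 had a window, of which 22 (16.4%) held the ATF4 core. Of these 22, 5 rose and 9 fell on adjusted p. Among 606 measured genes with the core in a window, 11 were called higher and 22 lower (5.45%). Among 15745 measured genes whose windows lack it 7.55% were called. Median differences were 0.015 log2 units with the core and 0.0030 without it.

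Lists of ER genes had medians below 0, most clearly the list of translocation and export. Of 20 ER chaperones and folding enzymes 0 were called in limma, with 1 higher and 8 lower on adjusted p and a median of −0.20. Of 19 genes of ER-associated degradation, which returns misfolded proteins to the proteasome, 1 was called, with 5 higher and 9 lower on adjusted p and a median of −0.19. EDEM3, a mannosidase that marks such proteins, rose by 1.01 (adjusted p of 7.31e-05) and lost its call in 6 of 16 other settings, among them without T24/THP replicate 1 (0.99) or 3 (0.99) and without T24 replicate 2 (0.94). Under quantile normalization 4 of the 19 were called, all higher, and with array medians centred 0. Of 20 genes of translocation into the ER and export from it 17 fell and 1 rose on adjusted p, with a median of −0.36. SEC61B, a subunit of the protein-conducting channel, was called, at −1.19 (9.24e-05). All genes with mean levels of 10 to 12 log2 units had a median difference of −0.15, close to the medians of the chaperone and degradation lists. With the level trend removed, the translocation list had a median of −0.26, with 1 higher and 13 lower on adjusted p. The chaperone list then had a median of −0.16, with 2 higher and 7 lower. The degradation list then had a median of −0.079, with 6 higher and 8 lower, and 3 called, all higher. Under quantile normalization the medians of the chaperone, degradation and translocation lists were −0.21, −0.089 and −0.25. With array medians centred they were −0.26, −0.26 and −0.42. In both settings 10 of the chaperone list were lower on adjusted p.

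**Figure D4:**
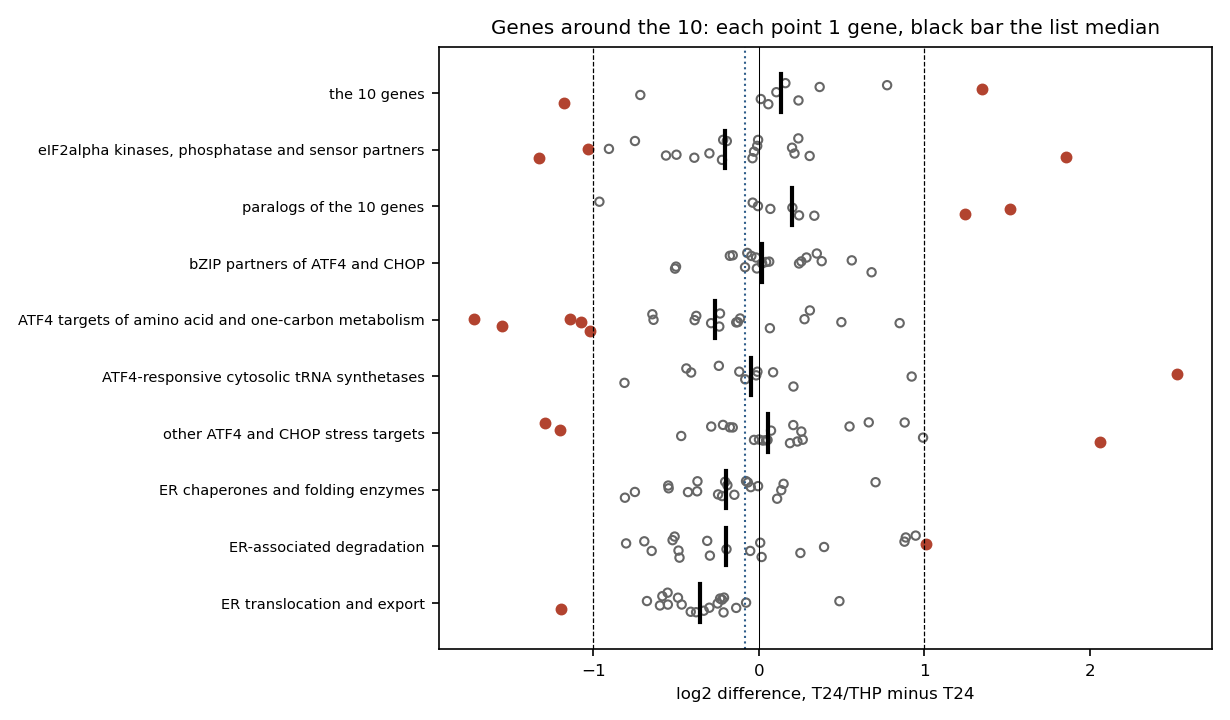
Difference between the lines (horizontal axis, log2 units, T24/THP minus T24) for the 10 genes and 9 lists around them, each point 1 gene, red where called, with a black bar at the list median and a dotted line at −0.08, the median of genes above background. List medians run from −0.36 for ER translocation and export to 0.20 for the paralogs.

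The ER stress element was found in 8 of the 134 listed genes with a window (5.97%). Of these, HSPA5, the chaperone BiP, was at 16.73 in T24/THP and 16.95 in T24, a difference of −0.22 that did not pass (adjusted p of 0.0644). HSP90B1, the ER form of the HSP90 chaperone, rose by 0.71 (0.000946), and EIF2A, an initiation factor, fell by 0.50 (0.00185). XBP1, CALR, CANX, PDIA6 and CRELD2 did not pass, with differences of −0.19 to 0.16. The core of the unfolded protein response element was found in 12 of the 134 (8.96%), and of these 1 rose and 8 fell on adjusted p. SEC62, a translocation factor, rose by 0.49, and ALDH18A1, CARS1, HYOU1, VCP, SEC61A1, SSR3, SSR4 and KDELR3 fell, from −0.21 for SEC61A1 to −1.72 for ALDH18A1. SEC61A1, SSR3, SSR4 and KDELR3 come from the translocation and export list, where most genes fell, and these genes were named after their values were seen. Among 461 measured genes with the core TGACGTG in a window, 10 were called higher and 23 lower (7.16%). Among 15890 measured genes whose windows lack it 7.48% were called. On adjusted p, 15.1% of all genes rose and 18% fell, and 64.2% of those above background in at least 1 line passed. Of all genes 6.62% were called, and of those above background in at least 1 line 15.2%. Over the 9 lists together, 16 of 156 genes besides the 10 were called (10.3%), 6 higher and 10 lower. The split changed with the scaling. Quantile normalization gave 12 higher and 7 lower, removing the level trend gave 11 higher against 7 lower, and centring array medians gave 5 higher against 11 lower.

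**Figure D5:**
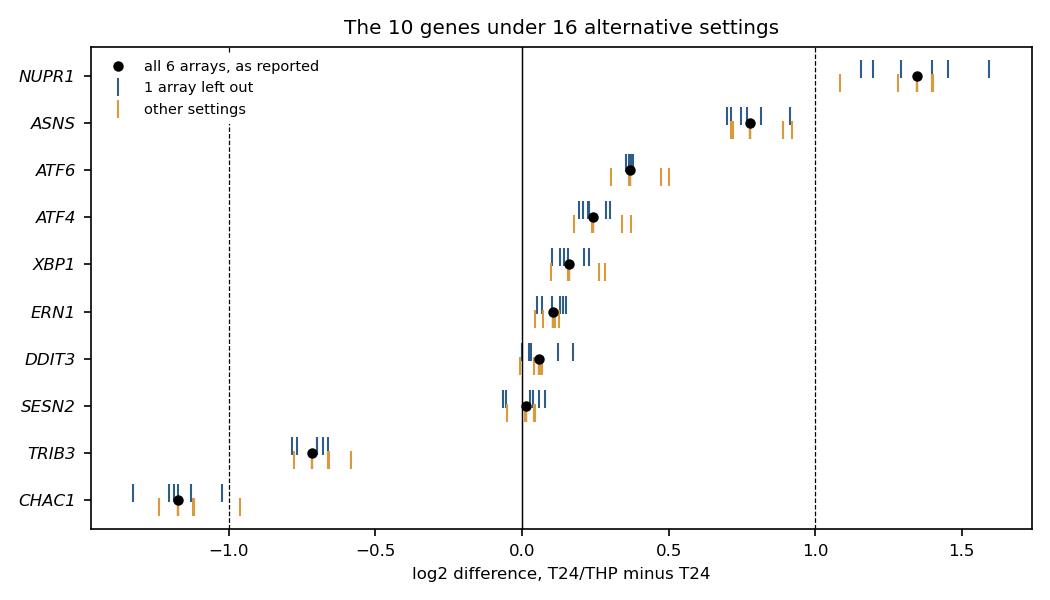
Difference between the lines (horizontal axis, log2 units, T24/THP minus T24) for the 10 genes with all 6 arrays (black points), with 1 array left out at a time (blue ticks) and under the other settings (orange ticks). NUPR1, ASNS, ATF6 and ATF4 stay above 0 and TRIB3 and CHAC1 below it in all 16 settings, while DDIT3 and SESN2 cross 0. Settings that change only the test or the other genes kept leave these differences as they were.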

How the data were processed

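RNA of T24/THP and T24 cells was labelled as cDNA with the Affymetrix WT PLUS kit and hybridised to 1 array per sample, per the labels' protocols. The authors deposited log2 intensities per transcript cluster, made with Affymetrix Expression Console per the submitters' processing notes. Neither its version nor its normalization algorithm is stated in the labels. The deposited log2 values were used as they stood. Of 65854 transcript clusters, 26515 carry exactly 1 symbol, updated through RefSeq (GRCh38.p14). For the 610 genes with several clusters the brightest was taken, which left 24930 genes. Cluster coordinates are those of GRCh37. The lines were compared with lmFit and eBayes of limma 3.58.1 (R 4.3.3), with Benjamini-Hochberg adjustment over all 24930 genes and no filter. A gene passed at an adjusted p under 0.05 and was called where it also differed by at least 1 log2 unit. With 3 arrays a line an exact permutation test has 20 splits and cannot go below a p of 0.1, so none was used. On simulated data for T24/THP against T24 over 24930 genes, 94% of genes set to differ by 1.25 log2 units were called. Of those set to differ by 0.5, 64% passed on adjusted p and 0% were called, being set under the minimum of 1 log2 unit. In the simulation 24730 genes had no difference, whereas 33.1% of genes passed on adjusted p in the data. The members and lists were chosen with earlier results of these data known. Besides the members and their paralogs, up to 3 called genes per direction were named from each list. Further genes were named for their roles, as cell type markers, for a promoter match or after their values were seen. Genes like ATF4 were ranked by Euclidean distance. Arrays give no read depth, and their number limits the precision. The replicate numbers were not taken to pair the arrays.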

Additional observations from a re-analysis of the deposited data

How the results depend on the processing

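The difference of each of the 10 genes was recomputed under 16 alternatives, and 153 of 160 values kept their direction and their side of the call. Leaving out dim genes, testing against 2-fold, a trended variance, the replicate block and the dimmest cluster cannot move these differences, only their calls. A second deposited copy of the values gave nearly the same differences. CHAC1 lost its call when linear intensities were raised by an offset of 32, which shrinks differences of dim genes, and left 1 of the 10 called. Testing against a 2-fold difference itself, a stricter criterion by construction, left 0 of the 10 in limma, 738 of all genes and 6 of the listed genes. DDIT3 turned to −0.0060 with array medians centred. SESN2 turned to −0.051 with array medians centred, −0.056 without T24/THP replicate 2 and −0.066 without T24 replicate 2, against up to 0.078 without T24 replicate 3; the cause was not tested. With 1 array left out at a time, 1590 to 1768 genes, 2 of the 10 and 14 to 17 listed genes were called. Deviations of same-numbered arrays correlated at 0.04, 0.15 and 0.02, beside −0.15 to 0.11 for arrays of different numbers. By this measure 4 of 6 arrays correlated best with their own number, a weak hint from the data and not the design. The replicate block gave 1653 genes, 2 of the 10 and 16 listed genes called.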
